A study of Mus musculus with 12 samples.

Results

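DNA replication in MC38 cells was followed through 39 genes that build, license, start and copy at the replication fork, that supply its nucleotides, or that switch the programme on. They were taken from the table by gene symbol, from a list grouped by role that was put together with earlier results of these data known. The table held an entry for 37 of them among its 42329 entries, and no entry of that name was found for Tyms, which encodes thymidylate synthase, or Uhrf1, which recruits the maintenance DNA methyltransferase. All 37 passed the filter on low values, which asked for at least 1 FPKM in at least 3 libraries. FPKM is a fragment count divided by the length of the gene model and by the fragments of the library. These divisions allow for gene length and depth, but the FPKM sums differed between groups here. Changes between libraries therefore also depend on the scaling.

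MC38 is a mouse colon adenocarcinoma line. Its cells had been given a guide RNA, either the control (sgControl) or 1 directed at Hcar1 (sgHcar1), which encodes a cell-surface receptor for lactate, and their RNA was sequenced. Each kind of cell received either PBS, the saline vehicle, or 20 mM lactate for 24 hours. With 3 libraries in each group there were 4 groups and 12 libraries: sgControl in PBS, sgControl in lactate, sgHcar1 in PBS and sgHcar1 in lactate. All groups share the line, and no strain, age or time of harvest other than the length of the lactate treatment is given. The labels do not say whether the sgHcar1 cells are 1 clone or a pool, or whether replicate libraries stem from separate cultures, so p-values measure only the spread between these libraries. The comparisons ask how lactate changed these genes, and whether that change differed in cells with the guide against the receptor gene.

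The columns of the table name the guide by a letter, which stands for sgControl in some of them and was read as sgHcar1 in the rest by elimination, and the targeted gene gives no check of that reading. Hcar1 was listed at 0 in all 3 libraries of 3 groups and in 2 of the 3 libraries of sgHcar1 cells in PBS, with 0.0196 FPKM in the remaining one. No counts are held here, so the depth in reads is unknown, and the depth relative to the deepest library, estimated from low genes, was 0.746 to 1. That estimate was lowest in sgHcar1 cells in lactate, at 0.746 to 0.793, and was 0.865 or more in every other library. Summed over all entries, libraries of sgControl cells had 310109 to 324562.3 FPKM, whereas those of sgHcar1 cells had 362814.6 to 367976.7 with PBS and 411996.2 to 421984.3 with lactate. Of 8 markers of epithelium, Epcam and Cdx2 were listed at 0 in every library and 5 stayed below 1 FPKM everywhere. The summed level of the 8 was 3.07 to 3.29 FPKM in sgControl cells in PBS and 4.85 to 5.16 in lactate, against 44.9 to 48.5 and 110.4 to 114.3 in sgHcar1 cells. In sgHcar1 cells that sum was nearly all Krt18, at 44.7, 48.4 and 45.4 FPKM in PBS and 110.2, 114 and 114 in lactate, which was at or near 0 in sgControl cells. Cdh1 and Krt19 went the other way, with means of 1.72 and 1.31 FPKM in sgControl cells in PBS and 4.53 and 0.300 FPKM in lactate, and both were listed at 0 in every sgHcar1 library. Summed markers of fibroblasts were 125.7 to 128.0, 109.6 to 116.0, 136.2 to 145.2 and 55.6 to 59.9 FPKM in the same order of groups, and Thy1 and Lum were listed at 0 throughout. Col3a1 and Col1a2 had the highest means of that list in sgControl cells in PBS, at 67.2 and 45.5 FPKM. Within that sum, in PBS, Col3a1 was 43.2-fold, Dcn 26.7-fold and Pdgfra 10.9-fold lower in sgHcar1 than in sgControl cells, and Col1a1 was 22.8-fold and Col1a2 2.52-fold higher. Leukocyte markers summed to 11.3 to 12.6, 13.7 to 14.1, 7.04 to 8.03 and 3.82 to 5.02 FPKM, with Cd3e and Itgam at 0, and endothelial markers to at most 1.91 FPKM. These levels move with the guide and the treatment, and their part in the results on replication genes was not tested.

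A replication origin is licensed in G1 phase, when Cdc6 and Cdt1 load the ring-shaped MCM helicase onto DNA, and geminin later blocks a further round of loading. At the start of S phase the E-type cyclins and their kinase partner help to fire origins, Cdc45 and the GINS complex switch the helicase on, and polymerases, the PCNA clamp and its loader copy the strands. Most of these genes are transcribed in a burst at the G1/S boundary under E2F transcription factors, of which E2f1 and E2f2 are known as activators and E2f7 and E2f8 as repressors. Bulk RNA gives the mean over all cells of a library: fewer cells in S phase and less RNA per cell cannot be told apart.

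Promoter sequences are given for the genes on which the results turn, since E2F factors are known to act there. Windows of 300 bases, from 250 before to 50 after the start of transcription, were taken from RefSeq for build GRCm38.p6, and 33 of the 39 genes had at least 1 window, 41 in all. Mcm4, Ccne2, Gmnn, Gins1, Gins2 and Pole had none. The E2F motif was searched on both strands as TTTCCCGC, TTTGGCGC, TTTCGCGC or TTTGCCGC. The windows shown belong to 3 subunits of the MCM helicase, to the E2F factor whose lactate response differed most between the guides, to the 1 gene called higher in lactate in sgHcar1 cells, and to E2f8 and Tk1, which have large falls and no match, and capitals mark E2F motifs. Mcm7 and E2f2 each have another window, not shown, which holds no match. In Mcm5 and Mcm6 a match on each strand overlaps into a single capital run. The windows are Mcm5 at chr8:75109259-75109558 on the plus strand, Mcm6 at chr1:128359656-128359955 on the minus strand, Mcm7 at chr5:138171834-138172133 on the minus strand, E2f2 at chr4:136172024-136172323 on the plus strand, Pola1 at chrX:93632106-93632405 on the minus strand, E2f8 at chr7:48881547-48881846 on the minus strand and Tk1 at chr11:117825965-117826264 on the minus strand.
Mcm5: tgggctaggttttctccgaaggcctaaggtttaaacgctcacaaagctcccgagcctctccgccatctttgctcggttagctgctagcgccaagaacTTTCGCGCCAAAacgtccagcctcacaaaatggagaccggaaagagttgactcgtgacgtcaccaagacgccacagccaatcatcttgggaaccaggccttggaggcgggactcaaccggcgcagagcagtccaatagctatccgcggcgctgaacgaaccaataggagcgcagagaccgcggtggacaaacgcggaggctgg
Mcm6: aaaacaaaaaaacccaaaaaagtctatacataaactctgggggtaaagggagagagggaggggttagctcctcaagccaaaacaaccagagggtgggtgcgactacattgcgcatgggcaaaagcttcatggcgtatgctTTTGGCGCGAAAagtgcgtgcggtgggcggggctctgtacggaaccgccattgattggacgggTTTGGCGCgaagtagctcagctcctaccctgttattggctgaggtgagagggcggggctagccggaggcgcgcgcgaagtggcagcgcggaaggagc
Mcm7: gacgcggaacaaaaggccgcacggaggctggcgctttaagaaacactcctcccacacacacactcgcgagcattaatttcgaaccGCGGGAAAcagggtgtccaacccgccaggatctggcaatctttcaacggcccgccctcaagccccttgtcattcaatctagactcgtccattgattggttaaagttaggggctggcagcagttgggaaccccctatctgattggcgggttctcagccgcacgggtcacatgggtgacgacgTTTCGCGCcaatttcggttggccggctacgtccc
E2f2: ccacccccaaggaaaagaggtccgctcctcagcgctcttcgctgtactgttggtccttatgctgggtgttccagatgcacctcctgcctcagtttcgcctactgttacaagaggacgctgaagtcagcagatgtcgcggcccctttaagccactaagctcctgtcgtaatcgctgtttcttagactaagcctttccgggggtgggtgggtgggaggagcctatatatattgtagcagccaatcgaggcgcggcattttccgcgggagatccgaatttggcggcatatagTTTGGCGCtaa
Pola1: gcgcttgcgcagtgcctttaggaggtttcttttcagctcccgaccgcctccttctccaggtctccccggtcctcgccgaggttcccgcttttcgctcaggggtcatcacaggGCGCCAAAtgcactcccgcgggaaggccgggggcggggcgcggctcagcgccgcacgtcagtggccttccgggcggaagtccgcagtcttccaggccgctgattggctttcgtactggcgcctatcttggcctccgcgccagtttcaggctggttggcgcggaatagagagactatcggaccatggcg
E2f8: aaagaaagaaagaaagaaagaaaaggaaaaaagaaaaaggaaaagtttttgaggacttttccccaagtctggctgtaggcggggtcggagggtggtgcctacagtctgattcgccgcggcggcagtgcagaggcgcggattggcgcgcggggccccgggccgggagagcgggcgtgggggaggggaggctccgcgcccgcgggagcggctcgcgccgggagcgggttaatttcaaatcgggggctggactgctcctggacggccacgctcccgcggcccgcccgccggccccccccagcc
Tk1: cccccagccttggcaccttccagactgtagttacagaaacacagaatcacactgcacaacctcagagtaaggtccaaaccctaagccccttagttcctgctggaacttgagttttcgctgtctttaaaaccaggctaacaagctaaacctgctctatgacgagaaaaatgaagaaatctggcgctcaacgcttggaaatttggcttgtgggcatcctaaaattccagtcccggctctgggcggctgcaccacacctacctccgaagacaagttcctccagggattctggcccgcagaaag

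An E2F motif was held by 14 of the 41 windows, or 34.1%, against 744 of the 32851 RefSeq windows of the same length, or 2.26%, and 4.1% of the windows of genes tested here. These 14 windows belong to Cdc6, Cdt1, Dnmt1, E2f2, E2f7, Lig1, Mcm3, Mcm5, Mcm6, Mcm7, Pola1, Pold1, Rfc3 and Uhrf1. CCAAT on either strand, the box bound by the factor NF-Y, was present in 63.4% of the windows against 37.4% of all windows. The cell cycle element called CHR (TTTGAA or TTCGAA, either strand) was in 19.5% against 19.2%. In the 27 windows of mitosis genes, E2F motifs were present in 3.7%, CCAAT in 77.8% and CHR in 74.1%. The E2F share of the replication genes was not particular to them. It was 27.9% in windows of other replication fork and origin genes and 29.2% in those of other E2F, RB and G1/S regulators. In windows of other nucleotide synthesis genes it was 4.76%. Median GC content was 58.3% in the windows of replication genes, 52.7% in all windows and 61.0% in those of genes tested. A match to these letters is a description of the window and not a binding site.

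**Figure D1:**
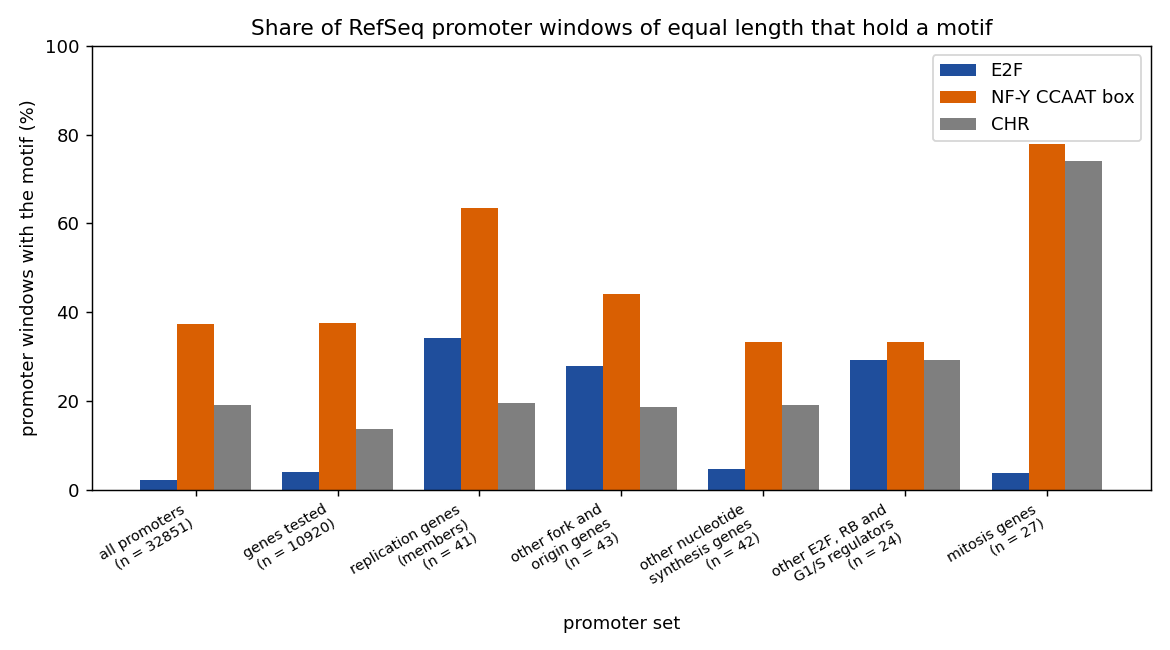
Share of RefSeq promoter windows, in percent, that hold an E2F motif, a CCAAT box or a CHR element, for all windows, genes tested, the replication genes and 4 lists of other genes, with the number of windows under each name. E2F motifs stand in 34.1% of the windows of replication genes and 3.7% of those of mitosis genes, while CHR elements stand in 19.5% and 74.1%. Other fork and origin genes have E2F motifs in 27.9% of windows, and other E2F, RB and G1/S regulators in 29.2%.

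In sgControl cells, every replication gene measured was lower in lactate than in PBS. All 37 fell, from -0.24 for Cdt1 and Pola1 to -1.83 for Ccne1 on the log2 scale of FPKM + 1, with a median of -0.77. The added 1 shrinks the changes of genes with low FPKM. Among all 13736 genes tested, 31.9% were called lower, 33.9% higher and 65.7% in either direction, with a median of 0.00. A call is an adjusted p under 0.05 from limma with Benjamini-Hochberg adjustment over all genes, and errors beside changes are standard errors. The 3 libraries in lactate lay apart from the 3 in PBS for all 37, as they did for 70.2% of all genes. Added up, the 37 genes had 1844.5 to 1863.2 FPKM in PBS and 1004.2 to 1043.7 FPKM in lactate.

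In sgHcar1 cells 34 of the 37 were lower in lactate and 1 was higher, with no call for Prim1 and Rfc4. Their median was -0.82, and the changes ran from -2.48 for E2f8 to 0.12 for Pola1. In the same comparison 35.4% of all genes were called lower, 36.8% higher and 72.2% in either direction, again with a median of 0.00. The libraries of the 2 treatments lay apart for 34 of the 37, against 73.6% of all genes. The 37 together had 1309.9 to 1364.2 FPKM in PBS and 691.2 to 710.3 FPKM in lactate. Pcna had the highest level of the 37 in every group.

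The size of the fall went together between the guides without being equal. Across the 37 genes the changes in sgControl and sgHcar1 cells had a Pearson correlation of 0.75, against 0.61 across all 13736 genes, a description over genes that share libraries and are not independent. For 20 genes the fall was called with both guides and the difference between the falls was not, for 11 the fall in sgHcar1 cells was larger, for 3 it was smaller, and for the remaining 3 (Pola1, Prim1 and Rfc4) a fall in sgControl cells stood against a rise or no call. Thus 17 of 37 differences were called, 11 lower and 6 higher, where 28.7% of all genes were called lower, 30.4% higher and 59.1% in either direction. The share of replication genes with a called difference was below that of all genes. After each library was rescaled to the same FPKM sum, 30 differences were called, 26 lower and 4 higher, where 41.9% of all genes were called lower, 18.0% higher and 59.9% in either direction. The share of replication genes was then above that of all genes, so its place against the background turned with the scaling. That rescaling moved the median difference of all genes to -0.20 and that of the replication genes from -0.05 to -0.27.

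**Figure D2:**
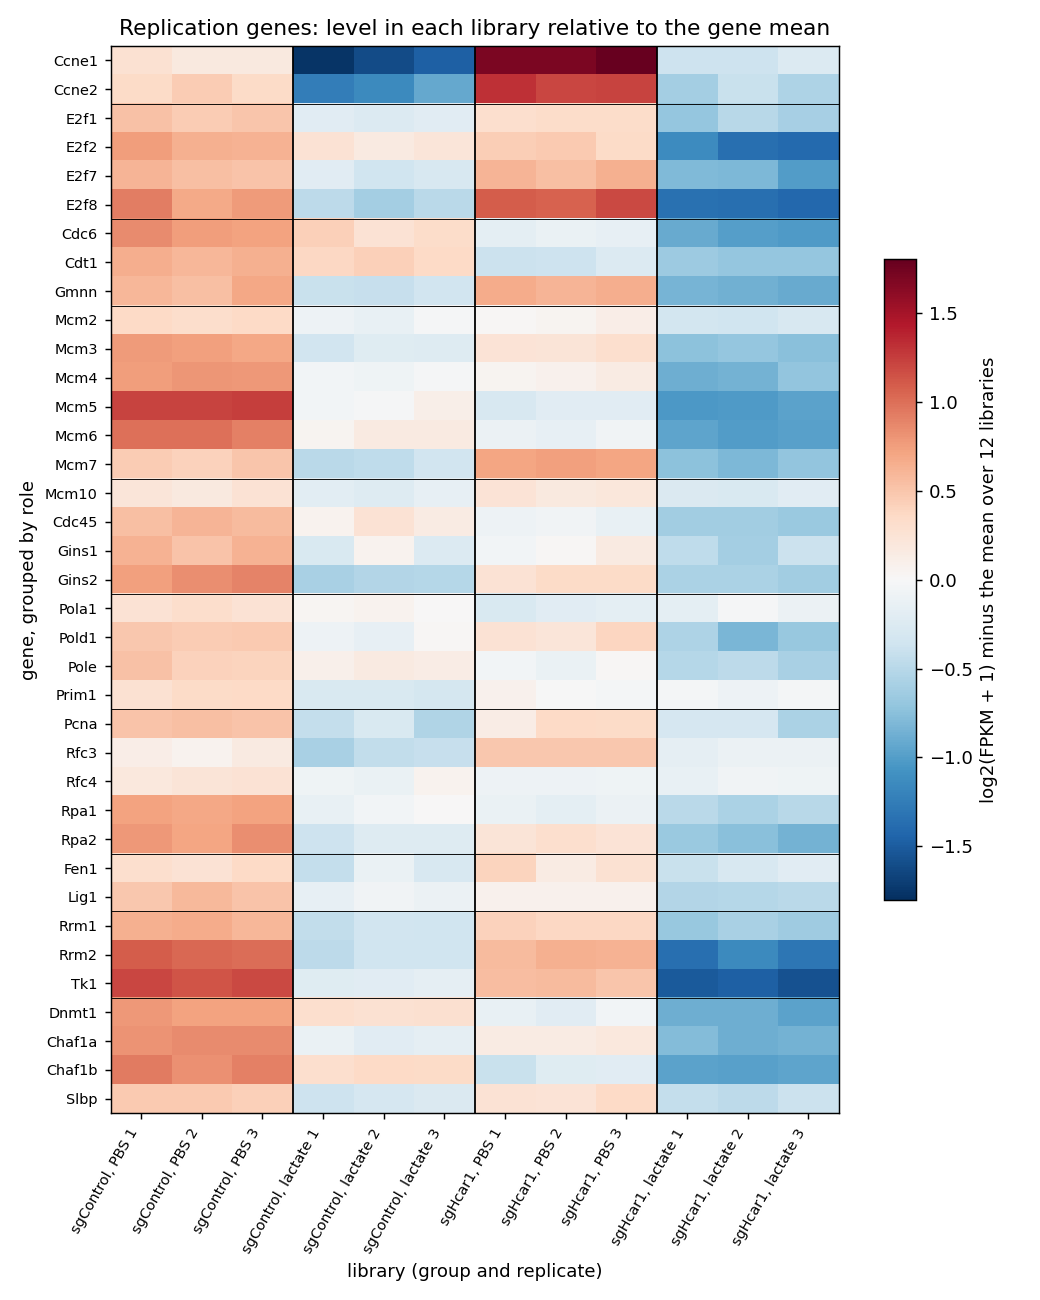
Level of the 37 replication genes (rows, grouped by role) in each of the 12 libraries (columns), as log2(FPKM + 1) minus the gene's mean over all libraries. Libraries of sgControl cells in PBS are above the mean for all genes, those of sgHcar1 cells in lactate are the lowest for most, and Ccne1 and Ccne2 stand highest in sgHcar1 cells in PBS.

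The E-type cyclins, which activate CDK2 to start S phase, had the largest falls in sgControl cells. Ccne1 stood at 8.61, 7.96 and 7.97 FPKM in sgControl libraries in PBS and at 1.33, 1.60 and 1.85 in lactate, and at 24.7, 24.6 and 27.0 and 5.15, 5.10 and 5.69 in the sgHcar1 libraries. No library in lactate reached the lowest in PBS of the same guide, yet Ccne1 in sgHcar1 cells in lactate was closer to sgControl cells in PBS than to sgControl cells in lactate. Its mean was 5.13-fold lower in lactate in sgControl cells (-1.83 ± 0.07, adjusted p = 2.64e-09) and 4.78-fold lower in sgHcar1 cells (-2.07 ± 0.07, adjusted p = 5.2e-10). Ccne2 stood at 8.62, 9.40 and 8.57 FPKM in PBS and 2.19, 2.42 and 2.98 in lactate in sgControl cells, and at 17.7, 16.3 and 16.5 and 3.92, 4.69 and 4.15 in sgHcar1 cells. Its treatments too lay apart with each guide, but its level in sgHcar1 cells in lactate was closer to sgControl cells in lactate than to those in PBS. Its changes were -1.49 ± 0.08 and -1.76 ± 0.08. The difference between the guides in these falls missed the threshold for both, at -0.24 ± 0.10 for Ccne1 (adjusted p = 0.0645) and -0.28 ± 0.12 for Ccne2 (adjusted p = 0.0611). For Ccne1 the 2 measures disagree on which guide had the larger fall. The ratio of means was larger with sgControl, and the log2 change of FPKM + 1, which shrinks changes at low FPKM, was larger with sgHcar1.

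All 4 E2F genes among the 37 fell with lactate, and all 4 fell further in sgHcar1 cells. E2f3, E2f4, E2f5 and E2f6, outside the 37, had no common response. With sgControl their mean FPKM in PBS and lactate was 11.1 and 13.1, 65.6 and 52.4, 13.4 and 12.6, and 12.7 and 11.7. With sgHcar1 it was 9.46 and 10.1, 74.1 and 61.7, 14.0 and 9.0, and 12.4 and 12.4. Thus E2f4 was lower in lactate with both guides, and E2f5 fell further with sgHcar1, its treatments overlapping with sgControl. The mean of E2f3 was higher in lactate with both guides, and that of E2f6 was level with sgHcar1. E2f8, a repressor of the E2F programme that is itself induced by it, stood at 18.6, 15.5 and 16.5 FPKM in PBS and 6.43, 5.74 and 6.35 in lactate in sgControl cells. In sgHcar1 cells it stood at 20.9, 20.6 and 22.6 and 3.07, 3.05 and 2.87. The groups did not overlap, and its fall of -2.48 ± 0.06 in sgHcar1 cells (7.13-fold, adjusted p = 5.26e-11) was the largest of the 37, against -1.31 ± 0.06 in sgControl cells (difference -1.17 ± 0.09, adjusted p = 1.46e-06). E2f2, an activator, had 7.96, 7.33 and 7.21 FPKM in PBS and 5.37, 4.98 and 5.19 in lactate in sgControl cells, and 6.22, 6.36 and 5.74 and 1.44, 1.08 and 1.02 in sgHcar1 cells. In lactate its libraries stayed at 4.98 FPKM or above with sgControl and were near 1 FPKM with sgHcar1. Its change was -0.46 ± 0.07 and -1.71 ± 0.07 respectively, a difference of -1.25 ± 0.10 (adjusted p = 2.04e-06). E2f7, the other repressor, had 9.71, 9.13 and 8.92 FPKM in PBS and 5.08, 4.47 and 4.70 in lactate with sgControl, and 9.68, 9.16 and 9.86 and 3.02, 2.99 and 2.47 with sgHcar1. Levels in PBS overlapped between the guides, and the fall was larger with sgHcar1, at -1.47 ± 0.06 against -0.83 ± 0.06 (difference -0.63 ± 0.09, adjusted p = 0.000138). E2f1 moved least between the guides, changing by -0.71 ± 0.04 and -0.92 ± 0.04 on the log2 scale (difference -0.21 ± 0.06, adjusted p = 0.0113).

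**Figure D3:**
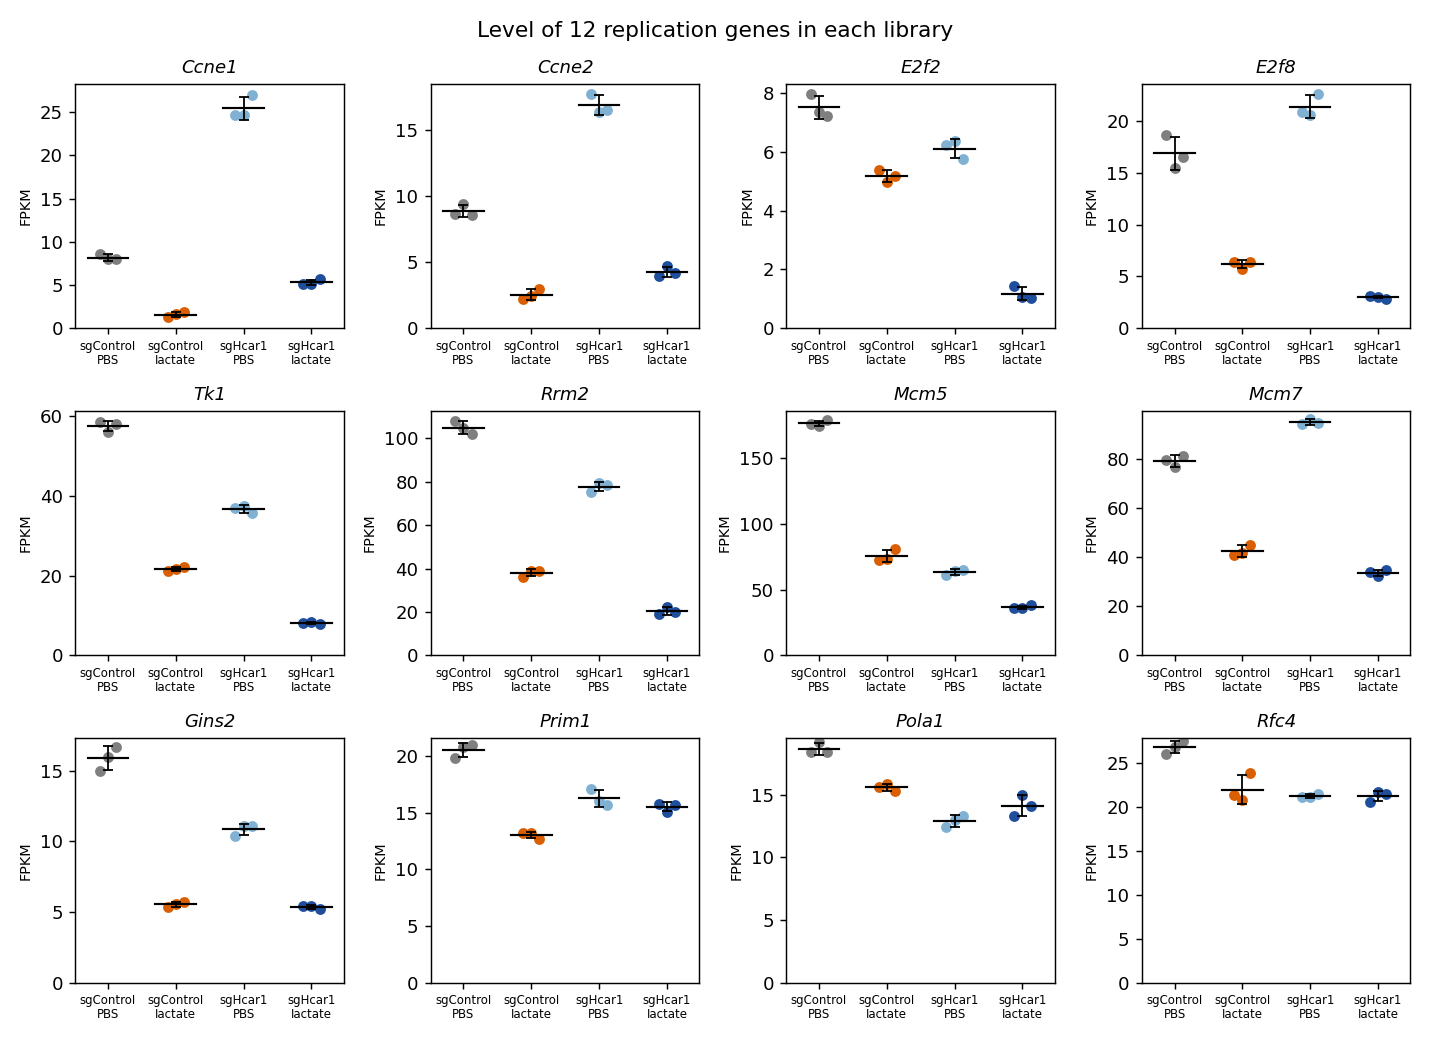
FPKM of 12 replication genes in each of the 3 libraries of each group (points), with the group mean (line) and SD (bars). Ccne1 and Ccne2 are highest in sgHcar1 cells in PBS, E2f2, E2f8, Tk1 and Rrm2 are lowest in sgHcar1 cells in lactate, and Prim1, Pola1 and Rfc4 are nearly level across the sgHcar1 groups.

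The licensing factors had smaller changes with lactate than the inhibitor of licensing. Cdt1, which brings the MCM ring to the origin, had 75.9, 73.3 and 75.1 FPKM in PBS and 62.2, 65.2 and 62.1 in lactate with sgControl, and 36.4, 37.0 and 40.2 and 30.2, 29.3 and 29.1 with sgHcar1. Its changes were among the smallest, at -0.24 ± 0.04 and -0.35 ± 0.04, while the guides lay far apart in either treatment. Cdc6, its partner in loading, had 14.2, 13.2 and 12.9 and 10.3, 9.03 and 9.52 FPKM with sgControl, and 6.45, 6.77 and 6.56 and 3.50, 3.23 and 3.16 with sgHcar1. Cdc6 changed by -0.44 ± 0.05 and -0.82 ± 0.05 on the log2 scale (difference -0.38 ± 0.08, adjusted p = 0.00136). Gmnn encodes geminin, the protein that holds Cdt1 inactive after S phase has begun. It had 42.1, 40.6 and 45.2 FPKM in PBS and 20.5, 20.3 and 21.3 in lactate with sgControl, and 44.4, 42.3 and 43.9 and 14.9, 14.6 and 14.2 with sgHcar1. Levels in PBS overlapped between the guides, and the fall was -1.01 ± 0.04 with sgControl and -1.52 ± 0.04 with sgHcar1 (difference -0.51 ± 0.06, adjusted p = 1.83e-05).

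The 6 subunits of the MCM ring, which unwinds DNA as a complex with 1 copy of each, all fell with both guides but not in step. Mcm5 had 176, 174 and 179 FPKM in PBS and 72.3, 73.5 and 80.8 in lactate in sgControl cells, and 61.2, 64.5 and 65.0 and 35.9, 36.3 and 38.0 in sgHcar1 cells. It was the highest subunit in sgControl cells, and its libraries in sgHcar1 cells in PBS were already below those of sgControl cells in lactate. Its fall was -1.21 ± 0.04 with sgControl and -0.77 ± 0.04 with sgHcar1, a smaller fall with sgHcar1 (difference 0.44 ± 0.06, adjusted p = 8.41e-05). Mcm7 went the other way, with 79.6, 76.8 and 81.5 and 40.8, 41.6 and 45.2 FPKM with sgControl and 94.3, 96.6 and 94.9 and 34.0, 32.5 and 34.8 with sgHcar1. It was the highest subunit in sgHcar1 cells in PBS, and its fall was -0.88 ± 0.04 with sgControl and -1.47 ± 0.04 with sgHcar1 (difference -0.59 ± 0.06, adjusted p = 7.73e-06). Mcm6 had 106, 105 and 99.7 and 54.4, 59.3 and 59.1 FPKM with sgControl, and 48.7, 47.7 and 50.2 and 26.7, 25.8 and 26.2 with sgHcar1, and changed by -0.84 ± 0.04 and -0.87 ± 0.04.

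Mcm3 fell from 104 ± 2.40 (SD, n = 3) to 51.6 ± 2.66 FPKM with sgControl and from 74.5 ± 1.93 to 37.0 ± 0.794 FPKM with sgHcar1. Mcm4 fell from 77.0 ± 1.21 to 43.2 ± 0.788 FPKM and from 47.8 ± 1.74 to 24.9 ± 1.61 FPKM. Mcm2, the lowest subunit in 3 of the 4 groups, had the smallest falls of the ring at -0.43 ± 0.04 and -0.39 ± 0.04. No difference between the guides was called for Mcm2, Mcm3, Mcm4 or Mcm6. The mean of the highest subunit was 3.52 times that of the lowest in sgControl cells in PBS, 2.04 times in sgControl cells in lactate, 2.32 times in sgHcar1 cells in PBS and 1.48 times in sgHcar1 cells in lactate. The spread of levels over the ring was thus narrower in lactate than in PBS with either guide.

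Helicase activation genes fell with both guides, and Gins2 fell most in sgControl cells. Gins2 and Gins1 encode subunits of GINS, which joins Cdc45 and the MCM ring to form the active helicase. Gins2 had 15, 16.0 and 16.7 FPKM in PBS and 5.36, 5.60 and 5.72 in lactate with sgControl, and 10.4, 11.1 and 11.1 and 5.46, 5.41 and 5.20 with sgHcar1. The libraries in lactate of the 2 guides overlapped, while those in PBS were higher with sgControl. Its changes were -1.37 ± 0.04 and -0.90 ± 0.04 (difference 0.47 ± 0.06, adjusted p = 7.56e-05). Gins1 went from 22.0 ± 1.03 to 12.8 ± 1.90 FPKM with sgControl (-0.74 ± 0.09) and from 14.8 ± 1.13 to 9.94 ± 0.873 FPKM with sgHcar1 (-0.53 ± 0.09). Cdc45 changed by -0.41 ± 0.05 and -0.55 ± 0.05 on the log2 scale. Mcm10, a factor that helps to activate the loaded helicase, went from 10.1 ± 0.303 to 7.34 ± 0.261 FPKM with sgControl and from 10 ± 0.277 to 7 ± 0.213 FPKM with sgHcar1, and its levels overlapped between the guides in either treatment. No difference between the falls was called for Gins1 (adjusted p = 0.193), Cdc45 (0.0918) or Mcm10 (0.482).

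Of the 3 genes that were not called lower in sgHcar1 cells, Prim1 and Pola1 encode enzymes that start new strands, and Rfc4 is a clamp loader gene. Prim1, the catalytic subunit of primase, had 19.8, 20.8 and 21.0 FPKM in PBS and 13.2, 13.2 and 12.7 in lactate with sgControl, and 17.1, 16.0 and 15.7 and 15.8, 15.1 and 15.7 with sgHcar1. The treatments were apart with sgControl and overlapped with sgHcar1. Prim1 changed by -0.62 ± 0.04 in sgControl cells and had -0.06 ± 0.04 in sgHcar1 cells (adjusted p = 0.155), and the difference of 0.56 ± 0.05 was the largest in that direction among the 37 (adjusted p = 7.2e-06). Pola1, the catalytic subunit of polymerase alpha, which works in 1 complex with primase, had 18.4, 19.2 and 18.4 and 15.6, 15.9 and 15.3 FPKM with sgControl, and 12.4, 13.0 and 13.3 and 13.3, 15 and 14.1 with sgHcar1. It fell by 0.24 with sgControl and was called higher with sgHcar1 at 0.12 ± 0.04 (adjusted p = 0.029), although the 2 groups of libraries overlapped. That rise was not called without any 1 of 4 libraries, and it was -0.06 (adjusted p = 0.303) after rescaling to equal FPKM sums. With the same rescaling Prim1 was called lower in sgHcar1 cells at -0.25 (adjusted p = 0.000207).

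The polymerases of the moving fork fell with both guides. Pold1, the catalytic subunit of the lagging-strand polymerase delta, went from 37.2 ± 0.425 to 25.2 ± 1.65 FPKM with sgControl and from 32.8 ± 2.09 to 16.2 ± 1.57 FPKM with sgHcar1, which were changes of -0.54 ± 0.07 and -0.98 ± 0.07 (difference -0.43 ± 0.10, adjusted p = 0.00268). Pole, that of the leading-strand polymerase epsilon, changed by -0.33 ± 0.05 and -0.47 ± 0.05 on the log2 scale, with no call for the difference (adjusted p = 0.103).

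**Figure D4:**
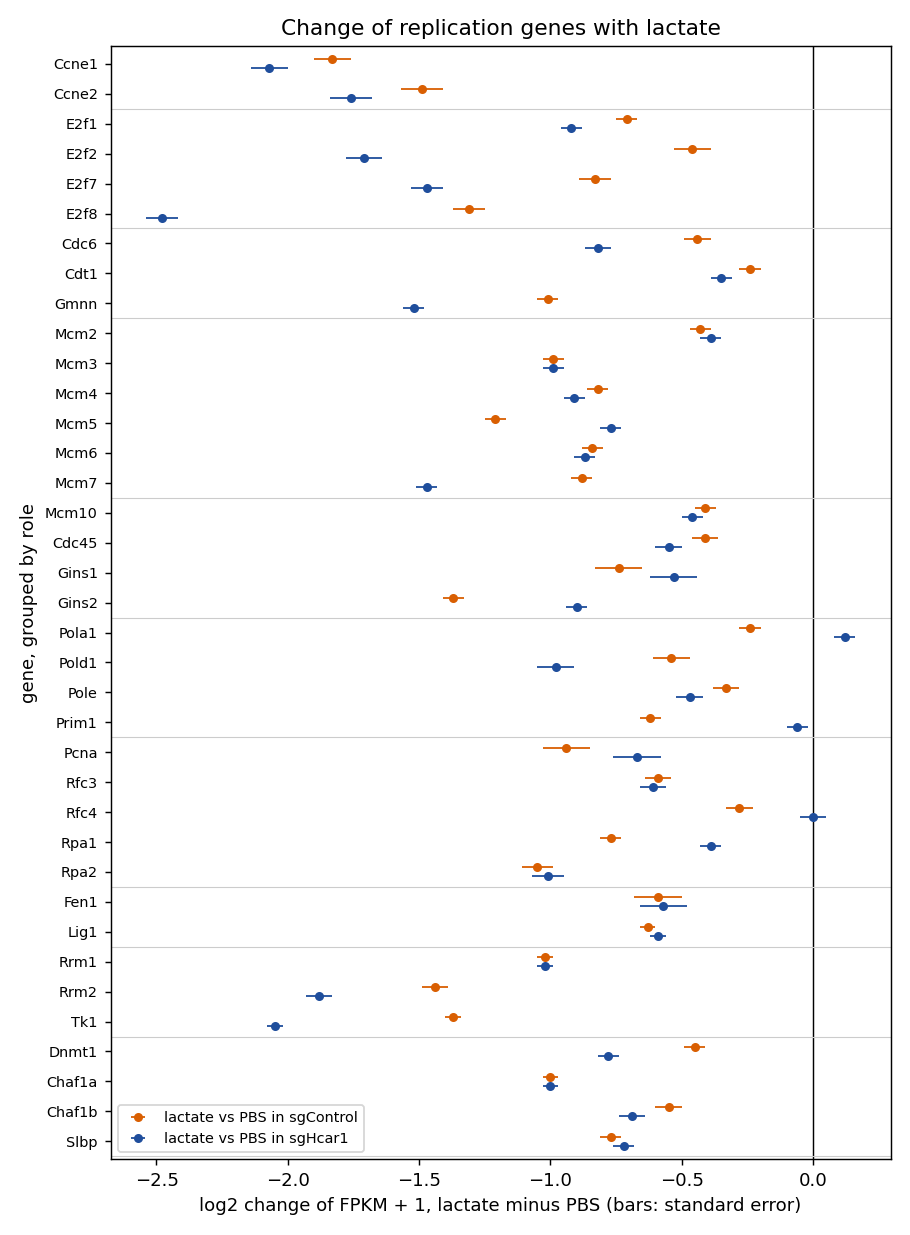
Log2 change of FPKM + 1 in lactate against PBS for the 37 replication genes, in sgControl cells (orange) and sgHcar1 cells (blue), with standard errors as bars. All points of sgControl cells lie below 0, the E2F genes, Tk1 and Mcm7 lie further left in sgHcar1 cells, and Prim1, Rfc4 and Pola1 lie at or above -0.06 in sgHcar1 cells.

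The clamp, the clamp loader and the single-strand binding protein did not share 1 response. Pcna, the sliding clamp that holds polymerases on DNA, had 197, 202 and 199 FPKM in PBS and 103, 114 and 95 in lactate with sgControl, and 152, 178 and 175 and 112, 112 and 92.7 with sgHcar1. Levels in lactate overlapped between the guides, and the falls of -0.94 ± 0.09 and -0.67 ± 0.09 did not pass the test of their difference (adjusted p = 0.0902). Rfc4, a subunit of the loader that opens the clamp, had 26, 26.8 and 27.4 and 21.3, 20.7 and 23.8 FPKM with sgControl, and 21.1, 21.1 and 21.4 and 20.5, 21.6 and 21.4 with sgHcar1. Rfc4 fell by 0.28 with sgControl and was level with sgHcar1 in the means, at 0.00 ± 0.05 (adjusted p = 0.981), a difference of 0.27 ± 0.06 (adjusted p = 0.00389). After rescaling to equal FPKM sums Rfc4 was called lower in sgHcar1 cells at -0.19 (adjusted p = 0.00196) and its difference of 0.05 was not called. Rfc3, another subunit of the same loader, had 14.4, 13.8 and 14.9 and 8.5, 9.48 and 9.66 FPKM with sgControl, and 18.9, 18.8 and 18.8 and 11.7, 12.2 and 12.2 with sgHcar1. It fell with both guides, at -0.59 ± 0.05 and -0.61 ± 0.05.

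Rpa1 and Rpa2 encode subunits of replication protein A, which covers single-stranded DNA. Rpa1 had 53.9, 52.8 and 53.8 FPKM in PBS and 29.4, 31.1 and 32.5 in lactate with sgControl, and 29.8, 28.5 and 30 and 22.7, 21.5 and 22.5 with sgHcar1. Its libraries of sgHcar1 cells in PBS overlapped with those of sgControl cells in lactate, and its fall was smaller with sgHcar1, at -0.39 ± 0.04 against -0.77 ± 0.04 (difference 0.38 ± 0.05, adjusted p = 0.000111). Rpa2 fell with both guides, from 34.3 ± 1.48 to 16.1 ± 1.01 FPKM and from 23.7 ± 0.687 to 11.3 ± 0.775 FPKM. No difference between the guides was called for Rpa2 (adjusted p = 0.725), nor for the enzymes that trim and seal Okazaki fragments. Fen1, the flap nuclease, changed by -0.59 ± 0.09 and -0.57 ± 0.09, and Lig1, the ligase, by -0.63 ± 0.03 and -0.59 ± 0.03 on the log2 scale (adjusted p of the differences = 0.897 and 0.391).

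Genes of nucleotide supply had some of the larger falls. Tk1, the thymidine kinase that salvages thymidine for S phase, had 58.6, 56.2 and 58.0 FPKM in PBS and 21.3, 21.6 and 22.3 in lactate with sgControl, and 37.1, 37.5 and 35.7 and 8.11, 8.41 and 7.79 with sgHcar1. The 4 groups did not overlap, and the fall was 2.65-fold with sgControl (-1.37 ± 0.03, adjusted p = 7.78e-11) and 4.54-fold with sgHcar1 (-2.05 ± 0.03, adjusted p = 3.55e-12, difference -0.69 ± 0.05). Rrm2, the subunit of ribonucleotide reductase that limits the enzyme in the cell cycle, had 108, 104 and 102 and 36.2, 38.9 and 38.9 FPKM with sgControl, and 75.4, 79.2 and 78.6 and 19.1, 22.3 and 19.9 with sgHcar1. It too was lowest in sgHcar1 cells in lactate in every library, with changes of -1.44 ± 0.05 and -1.88 ± 0.05 (difference -0.44 ± 0.07, adjusted p = 0.000384). Rrm1, the large subunit of the same enzyme, had 116 ± 2.71 FPKM in PBS and 56.9 ± 2.11 in lactate with sgControl, and 98.1 ± 1.76 and 47.8 ± 1.71 with sgHcar1. Its change was -1.02 ± 0.03 and -1.02 ± 0.03, the same to 2 decimals. The median of these 3 genes was -1.37 in sgControl cells and -1.88 in sgHcar1 cells, beside -0.77 and -0.82 over all 37.

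Genes that copy chromatin behind the fork fell with both guides. Chaf1a and Chaf1b encode subunits of chromatin assembly factor 1, which places histones on new DNA. Chaf1b had 15, 13.8 and 14.7 FPKM in PBS and 9.34, 9.75 and 9.60 in lactate with sgControl, and 5.31, 6.21 and 6.26 and 3.30, 3.25 and 3.34 with sgHcar1. All sgHcar1 libraries were below all sgControl libraries, while the falls were -0.55 ± 0.05 and -0.69 ± 0.05 with no call for their difference (adjusted p = 0.159). Chaf1a fell by 1.00 with either guide, from 50.4 ± 1.00 to 24.7 ± 0.754 FPKM and from 31.3 ± 0.648 to 15.2 ± 0.588 FPKM. Dnmt1, which restores DNA methylation on the new strand, changed by -0.45 ± 0.04 with sgControl and -0.78 ± 0.04 with sgHcar1 (difference -0.33 ± 0.06, adjusted p = 0.000442). Slbp, which binds the stem-loop of replication-dependent histone mRNAs, changed by -0.77 ± 0.04 and -0.72 ± 0.04.

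Without lactate, most replication genes were lower in sgHcar1 than in sgControl cells, but the E-type cyclins were higher. In PBS 28 of the 37 were lower, 5 were higher and 4 (E2f7, Fen1, Gmnn and Mcm10) had no call, with a median of -0.43. Among all genes tested 38.4% were called lower, 38.2% higher and 76.7% in either direction. The groups lay apart for 33 of the 37 and for 79.2% of all genes. The largest differences below sgControl were those of Mcm5 (2.78-fold, -1.46 ± 0.04), Chaf1b (2.45-fold, -1.16 ± 0.05), Mcm6 (2.12-fold, -1.07 ± 0.04), Cdt1 (1.98-fold, -0.96 ± 0.04) and Cdc6 (2.04-fold, -0.92 ± 0.05). Ccne1 was 3.11-fold higher (1.53 ± 0.07, adjusted p = 4.63e-09) and Ccne2 1.90-fold higher (0.85 ± 0.08, adjusted p = 2.13e-06). Rfc3 at 0.37 ± 0.05, E2f8 at 0.33 ± 0.06 and Mcm7 at 0.26 ± 0.04 were also higher, and after rescaling to equal FPKM sums E2f8 (0.16, adjusted p = 0.0555) and Mcm7 (0.08, adjusted p = 0.0523) were no longer called. Gmnn (-0.15) and Mcm10 (-0.19) were called lower after that rescaling.

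The MCM ring shows how unequal the guides were within 1 complex. In PBS, 5 of its subunits were lower in sgHcar1 cells, from -0.28 ± 0.04 for Mcm2 to -1.46 ± 0.04 for Mcm5, while Mcm7 was the only subunit called higher. Among the helicase activators Cdc45 was -0.67 ± 0.05, Gins1 -0.54 ± 0.09 and Gins2 -0.51 ± 0.04 in sgHcar1 against sgControl cells, and Mcm10 had -0.01 ± 0.04 (adjusted p = 0.787). All 4 polymerase and primase genes were lower, from -0.18 ± 0.07 for Pold1 to -0.51 ± 0.05 for Pole. The call for Pold1 (adjusted p = 0.0317) was lost without any 1 of 5 libraries and that for Pcna (adjusted p = 0.0252) without any 1 of 3. Tk1 was -0.63 ± 0.03 and Rrm2 -0.43 ± 0.05, both lower.

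With lactate in both, 28 of the 37 were lower in sgHcar1 than in sgControl cells and 4 were higher, with a median of -0.47. Among all genes tested 40.9% were called lower, 41.3% higher and 82.2% in either direction, and the groups lay apart for 32 of the 37 and for 82.3% of all genes. The largest difference was that of E2f2, which was 4.40-fold lower (-1.51 ± 0.07, adjusted p = 3.75e-09). Tk1 (2.68-fold, -1.32 ± 0.03), Chaf1b (2.90-fold, -1.30 ± 0.05) and Cdc6 (2.92-fold, -1.30 ± 0.05) followed, and all 6 MCM subunits were lower, Mcm7 included at -0.32 ± 0.04. Ccne1 was 3.33-fold higher (1.29 ± 0.07) and Ccne2 1.68-fold higher (0.58 ± 0.08). Rfc3 (0.35 ± 0.05) and Prim1 (0.24 ± 0.04) were the other genes called higher. After rescaling to equal FPKM sums Rfc3 stood at -0.02 without a call, and Prim1 at -0.15 was called lower. Fen1, Gins2, Mcm10, Pcna and Rfc4 had no call. After the same rescaling they were all called lower, at -0.37, -0.44, -0.46, -0.39 and -0.45. The comparisons of guides and of treatments share libraries, so a value in 1 of them is not independent of the others.

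Genes that were not members but belong to the same processes were counted from lists, by called falls and rises. Of all genes tested, lactate gave 31.9% called lower and 33.9% higher in sgControl cells. In sgHcar1 cells these shares were 35.4% and 36.8%. Of 44 other replication fork and origin genes 42 were tested, and with lactate 36 fell and 3 rose in sgControl cells (median -0.49), and 30 fell and 8 rose in sgHcar1 cells (median -0.55). Asf1b, a histone chaperone, changed by -1.26 ± 0.03 and -1.56 ± 0.03, and Top2a, which untangles replicated DNA, by -1.90 ± 0.03 in sgHcar1 cells. The mean of Top2a also fell in sgControl cells, from 155.7 to 82.0 FPKM. Recql4, a helicase linked to origin firing, rose by 1.75 ± 0.06 with sgControl and 1.36 ± 0.06 with sgHcar1, and Orc2 and Orc4, subunits of the origin recognition complex, rose with both guides.

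Other nucleotide synthesis genes had no common direction. Of 37 tested, 20 fell and 10 rose in sgControl cells (median -0.12) and 19 fell and 14 rose in sgHcar1 cells (median -0.14). Umps, which makes uridine monophosphate, fell by 0.56 with sgControl and rose by 1.02 ± 0.05 with sgHcar1 (difference 1.58 ± 0.07, adjusted p = 3.3e-08). Dck and Dtymk, kinases of deoxynucleosides and of thymidylate, fell with both guides. Rrm2b, a variant of the small ribonucleotide reductase subunit known as a p53 target, rose by 0.50 ± 0.08 in sgControl cells.

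The regulators around E2F split. Of 21 other E2F, RB and G1/S regulators tested, 11 fell and 5 rose with each guide (medians -0.15 and -0.26). Of all genes, 65.7% with sgControl and 72.2% with sgHcar1 were called in either direction. Fbxo5, an inhibitor of the anaphase-promoting complex known as an E2F target, changed by -0.87 ± 0.06 with sgControl and -2.43 ± 0.06 with sgHcar1 (difference -1.56 ± 0.09, adjusted p = 1.71e-07). Mybl2, a transcription factor of the cell cycle, changed by -0.67 ± 0.07 and -1.42 ± 0.07 (difference -0.75 ± 0.10, adjusted p = 8.87e-05), and Cdk2, the kinase of the E-type cyclins, by -0.68 ± 0.04 and -0.97 ± 0.04. Cdk6, a kinase of the D-type cyclins, rose by 0.41 ± 0.10 and 0.77 ± 0.10.

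Mitosis genes, which are transcribed later in the cycle, had larger median falls in lactate than replication genes. All 30 fell with both guides, with medians of -1.20 in sgControl and -1.59 in sgHcar1 cells, and 25 of the differences between the guides were called lower and 2 higher (median -0.60). Plk1, a kinase of mitotic entry, changed by -2.02 ± 0.07 and -3.13 ± 0.07, and Ccnf, the F-box cyclin, by -2.08 ± 0.07 and -1.17 ± 0.07. In PBS, where 28 of the 37 replication genes were lower in sgHcar1 than in sgControl cells, 17 of the 30 mitosis genes were higher and 6 lower (median 0.12). With lactate in both, 22 were lower and 2 higher (median -0.38). Of all genes tested, 38.2% were called higher and 38.4% lower in PBS, and 41.3% and 40.9% in lactate. For the differences between the guides, 28.7% of all genes were called lower and 30.4% higher.

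**Figure D5:**
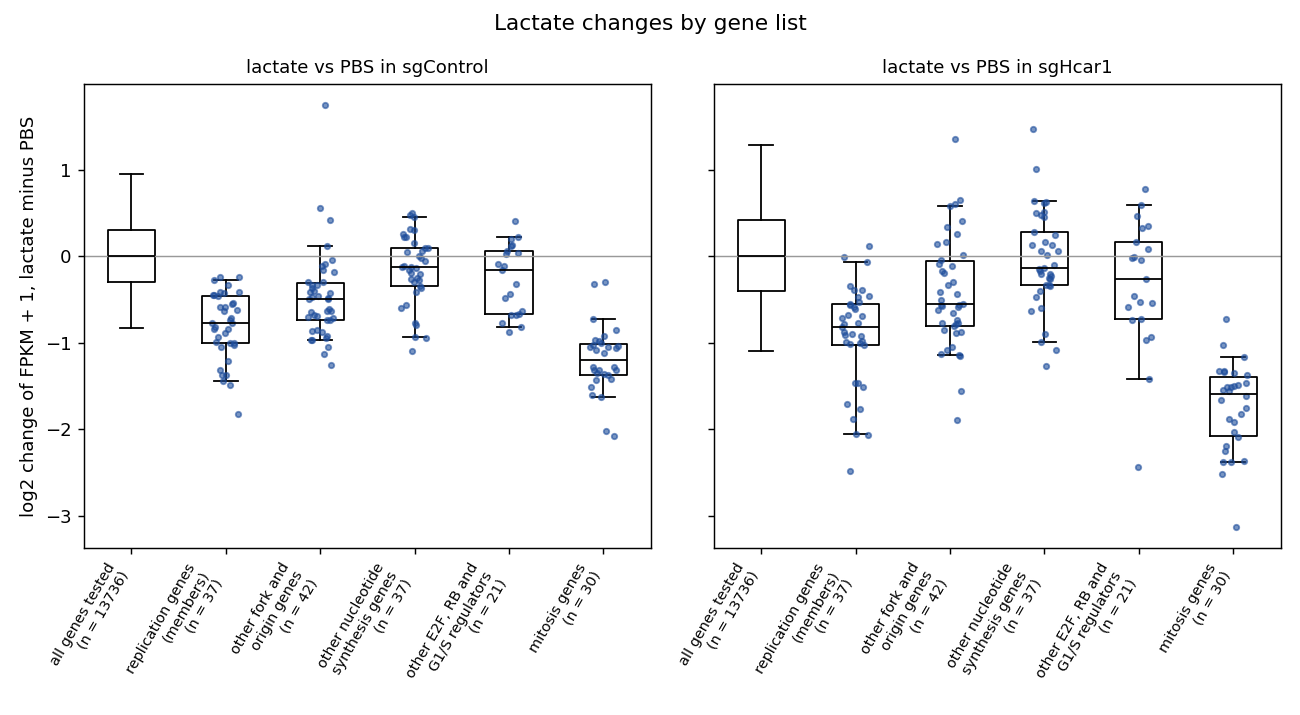
Log2 change of FPKM + 1 in lactate against PBS by gene list, in sgControl cells (left) and sgHcar1 cells (right), with boxes from the lower to the upper quartile, lines at medians and whiskers from the 5th to the 95th percentile, and each listed gene as a point. Replication genes center on -0.77 and -0.82, mitosis genes on -1.20 and -1.59, and other nucleotide synthesis genes near 0.

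Genes with and without an E2F motif in the promoter window had similar median changes. In sgControl cells the median change was -0.59 over 13 genes with a match and -0.77 over 18 without, and in sgHcar1 cells it was -0.82 and -0.70. Of the genes with a printed window, Mcm5, Mcm6 and Mcm7 hold a match and changed by -1.21 ± 0.04, -0.84 ± 0.04 and -0.88 ± 0.04 in sgControl cells, E2f2 holds a match after its start site and changed by -1.71 ± 0.07 in sgHcar1 cells, and Pola1 holds a match and was 0.12 ± 0.04 there. Ccne1, E2f8, Tk1 and Rrm2, with some of the largest falls, have windows without these letters, which says nothing of E2F factors at these genes.

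The spread between libraries of a group was small beside most of these changes. The median coefficient of variation of the 37 genes was 2.95% in sgControl cells in PBS, 4.38% in sgControl cells in lactate, 3.37% in sgHcar1 cells in PBS and 3.63% in sgHcar1 cells in lactate. In RefSeq 11 of the genes overlap another protein-coding gene (Ccne2 with Ints8, Cdc45 with Ufd1, Chaf1a with Ubxn6, E2f1 with Necab3, Fen1 with Tmem258, Gins2 with Gse1, Lig1 with Zswim9, Mcm7 with Ap4m1, Rfc4 with Eif4a2, Rpa1 with Smyd4 and Tk1 with Afmid), and Pcna has the processed copies Pcna-ps1 and Pcna-ps2. Whether fragments were counted by strand is not given in the sources used here, so the values of these genes are uncertain to that extent.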

How the data were processed

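RNA was sequenced from 12 libraries of MC38 cells in 4 groups of 3. The deposited table holds FPKM, with no counts. Per the submitters' processing notes, HISAT2 2.0.5 and featureCounts 1.5.0-p3 were used with the build GRCm38, but the gene identifiers belong to Ensembl's C57BL/6NJ annotation, so no coordinates were taken from the table. Columns were assigned from their letters, with those of sgHcar1 read by elimination. Which fragments form the FPKM total is not given in the sources used here, and depth in reads is unknown.

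The 13736 genes that reached 1 FPKM in 3 or more libraries (1922 without a symbol) were tested on the scale of log2(FPKM + 1) by limma 3.58.1, run in R 4.3.3. The model had 1 mean per group over all 12 libraries and an intensity trend. Tests were two-sided, with Benjamini-Hochberg adjustment over all genes within each of 5 contrasts and a threshold of 0.05. The model was tested on simulated data. Promoter windows came from RefSeq (GRCm38.p6), matched by symbol. Further work used pandas 2.3.3, numpy 2.4.6 and matplotlib 3.10.9 under Python 3.11.15.

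The 39 genes and all other lists were chosen with earlier results of these data known. Values in every library are given, per contrast, for the 5 members with the largest called change, for up to 6 that do not pass or go against the rest, and for subunits of a complex described against each other. Up to 5 genes of each other list are named by size of change, with those that do not pass or go against the rest. Gmnn and Pcna were added for their role, after their values were seen. E2f3, E2f4, E2f5 and E2f6 were added beside the other E2F genes, also after their values were seen. A gene that this rule names is not reported here. Alternatives were no filter on low values, a pseudocount of 0.1, a filter on the mean (5 FPKM or more), quantile normalization, median-ratio scaling, a common FPKM sum of 1000000, no intensity trend, a replicate block, fits on the compared groups alone, and the omission of each library in turn.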

Additional observations from a re-analysis of the deposited data

Results flagged for a closer look

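The lactate change of 17 of the 37 replication genes differed between sgHcar1 and sgControl cells by limma's test of the difference itself, adjusted over all genes. Values are the change in sgHcar1 minus that in sgControl cells on the log2 scale. A larger fall with sgHcar1 gave E2f2 -1.25, E2f8 -1.17, Tk1 -0.69, E2f7 -0.63, Mcm7 -0.59, Gmnn -0.51, Rrm2 -0.44, Pold1 -0.43, Cdc6 -0.38, Dnmt1 -0.33 and E2f1 -0.21. A smaller fall, or none, with sgHcar1 gave Prim1 0.56, Gins2 0.47, Mcm5 0.44, Rpa1 0.38, Pola1 0.36 and Rfc4 0.27. The 4 E2F genes among the 37 are all in the former group and both strand-starting genes, Prim1 and Pola1, in the latter. Since 59.1% of all genes passed the same test, that a gene differed does not set it apart. The differences of Pola1 and Rfc4 were not called after rescaling to equal FPKM sums. No cause of these differences was tested.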

How the results depend on the processing

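The counts of replication genes called for lactate within each guide and for the guides within each treatment stayed within 1.5 times under all 9 alternative settings. They were 35 to 37 for lactate in sgControl cells, 33 to 36 for lactate in sgHcar1 cells, 32 to 33 for the guides in PBS and 31 to 36 for the guides in lactate. Leaving out each of the 12 libraries gave 37, 34 to 35, 31 to 33 and 31 to 32. The count of called differences between the lactate effects was 17, 17 to 20 without 1 library, 22 with quantile normalization and 30 after rescaling to a sum of 1000000. Of all genes, 59.1% had a called difference with the main setting and 59.9% after that rescaling. Shares over all genes under the other settings are not given here. The counts under those settings therefore do not compare replication genes with all genes. A turn of direction was counted only for values called with the main or the alternative setting, and turns of uncalled values were not counted. By that count rescaling turned 10 values: Pola1 with lactate in sgHcar1 cells (-0.06), the differences of Chaf1a (-0.23), Lig1 (-0.19), Mcm2 (-0.19), Mcm3 (-0.23) and Slbp (-0.17), Gmnn between guides in PBS (-0.15), and Pcna (-0.39), Prim1 (-0.15) and Rfc3 (-0.02) between guides in lactate. Quantile normalization turned Pcna between guides in lactate (-0.29). The rescaling moved the median of all genes by construction, to -0.12 for lactate in sgHcar1 cells, -0.16 for the guides in PBS and -0.37 for the guides in lactate, where the medians of the replication genes were -1.07, -0.61 and -0.88. Whether the FPKM sums differ for a technical reason was not tested. Over the 37 replication genes, the 5 contrasts and all alternatives 3803 values had no change of call and no counted turn. A further 24 lost a call, 37 gained 1 and 11 turned. Calls lost without 1 library were those of Pola1 with lactate in sgHcar1 cells, Pcna and Pold1 between guides in PBS and Slbp between guides in lactate. The differences of Ccne1 and Ccne2 were called without replicate 1 of sgControl cells in lactate (-0.31 and -0.35). Over all libraries the ratios of means of Ccne1 had the opposite order, 5.13-fold lower with sgControl and 4.78-fold with sgHcar1. The labels do not say whether same-numbered libraries are paired. Correlations of their deviations were -0.051 to 0.085, against -0.102 to 0.077 for libraries of different numbers. These values show no shared deviation but cannot tell how the cultures were set up. A replicate block moved the count of called differences to 18 and no other count. The unknown depth limits what can be said of genes at low FPKM, such as Ccne1 and E2f2 in lactate.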

Other observations

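Ratios of related genes within a library are free of the scaling of that library. These pairs were chosen after their values were seen, and the ratios have no test. Gmnn to Cdt1, the licensing inhibitor to its target, was 0.570 ± 0.027 (SD, n = 3) in sgControl cells in PBS and 0.328 ± 0.0159 in lactate, against 1.15 ± 0.0651 and 0.494 ± 0.00475 in sgHcar1 cells. The ratio was lower in lactate with both guides and higher in sgHcar1 cells in either treatment, without overlap of libraries. Rrm2 to Rrm1, the regulated to the large subunit of ribonucleotide reductase, was 0.900 ± 0.022 and 0.668 ± 0.0048 in sgControl cells, and 0.793 ± 0.0347 and 0.427 ± 0.0192 in sgHcar1 cells. Ccne1 to Ccne2 was 0.925 ± 0.0757 and 0.631 ± 0.0279 in sgControl cells, and 1.51 ± 0.122 and 1.26 ± 0.15 in sgHcar1 cells, and the libraries of the treatments did not overlap with either guide. E2f8 to E2f1 was 0.448 ± 0.0327 and 0.274 ± 0.0119 in sgControl cells, and 0.645 ± 0.0307 and 0.176 ± 0.0148 in sgHcar1 cells, the highest ratio in PBS and the lowest in lactate.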
